A study of Mus musculus with 12 samples.

Results

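Connexins are the proteins that form gap junctions, and 5 of them are known from the mouse heart: Gja1 (connexin 43), Gja5 (connexin 40), Gjc1 (connexin 45), Gjd3 (connexin 30.2) and Gja4 (connexin 37). Their genes were taken by symbol, and all 5 were among the 51826 entries of the gene count table. The table holds poly(A) RNA-Seq of 12 libraries, taken from both chambers (atria and ventricles) of 6 hearts, 3 of them from CUG960 +dox mice and 3 from MHCrtTA +dox controls. All 6 mice were FvB females aged 10 weeks, and all had received doxycycline (dox) from postnatal day 1. CUG960 +dox mice (V119, V120 and V123) carried TREDT960I on both chromosomes and a single copy of MHCrtTA, whereas control mice (V327, V333 and V334) were hemizygous for MHCrtTA alone. MHCrtTA, also present in the controls, places the dox-dependent transactivator under the α myosin heavy chain promoter of cardiomyocytes. TREDT960I is then transcribed into RNA with 960 interrupted CUG repeats within human DMPK exons, as a model of the heart in myotonic dystrophy type 1. Because the controls lack TREDT960I altogether, an effect of the repeats and an effect of the rest of the transgene cannot be told apart.

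Gap junctions are clusters of channels that join the cytoplasm of neighbouring cells, and each cell contributes a ring of connexin subunits to a channel. In the heart they carry the current that spreads the action potential from cell to cell, and the connexins that a myocyte makes set how readily that current passes. Gja1 encodes the main connexin of working atrial and ventricular myocytes, Gja5 the connexin of atrial myocytes, the His-Purkinje system and arterial endothelium, Gjc1 and Gjd3 connexins of the nodal tissues that form channels of low conductance, and Gja4 a connexin of vascular endothelium.

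Total counts per library ranged from 116127966 to 160676189 (median of 135817118). Levels are library-size normalized counts (CPM) scaled by the trimmed mean of M values (TMM) over all 12 libraries. The chamber labels matched the myosin light chains. Myl7, the atrial regulatory light chain, was at 2841 CPM in control atria and 2921 CPM in CUG960 +dox atria, against 10.7 CPM and 18.8 CPM in the ventricles. The ventricular libraries differed in this atrial marker: the CUG960 +dox mouse V123 had 6995 Myl7 counts, V119 had 28 and V120 had 42, against 524 to 2166 in the control mice. In V123, the ventricular Myl7 level was 2.20% of the level in the atria of the same mouse, and in the other 5 mice it was 0.689% or less. The human repeat transcript was not analysed here, and mouse Dmpk, the endogenous gene, did not pass the test between genotypes in atria (log2 fold change of 0.11, adjusted P value = 0.318) or ventricles (0.22, adjusted P value = 0.201, both by edgeR's quasi-likelihood test).

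The sequences upstream of Gja1 and Gja5 are shown because these were the 2 most abundant members of control atria per length and those with the largest differences between chambers in their CUG960 +dox change, as given below. They are the 250 bases before the RefSeq start on GRCm38.p6, with motif matches in capitals. RefSeq promoters were at hand for 3 of the 5 members. The Gja1 window lies at chr10:56377050-56377299 and the Gja5 window at chr3:97032152-97032401, both on the plus strand.
Gja1: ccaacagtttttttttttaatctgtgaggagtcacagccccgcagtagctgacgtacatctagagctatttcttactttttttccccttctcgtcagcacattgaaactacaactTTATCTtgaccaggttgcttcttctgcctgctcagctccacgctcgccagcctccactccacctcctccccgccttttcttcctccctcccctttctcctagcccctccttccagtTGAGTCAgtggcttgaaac
Gja5: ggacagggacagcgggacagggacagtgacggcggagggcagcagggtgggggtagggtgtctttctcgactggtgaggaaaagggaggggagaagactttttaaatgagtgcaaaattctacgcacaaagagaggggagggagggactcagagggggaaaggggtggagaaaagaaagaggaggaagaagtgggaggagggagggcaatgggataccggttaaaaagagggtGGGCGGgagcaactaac
Short patterns were searched on both strands, with N for any base, and no 2 of the matches printed here overlap. The T-box pattern was GGTGTGA and that of the homeobox factor NKX2-5 was TNAAGTG. The pattern of GATA factors was taken as AGATAA and that of AP-1 as TGANTCA. The GC box was spelled GGGCGG, and the TATA box was spelled TATAAA. In Gja1 the capitals mark the AP-1 pattern, which begins 19 bases before the start, and the GATA pattern read on the other strand, which begins 135 bases before it. In Gja5 they mark a GC box that begins 17 bases before the start. Over the same 250 bases of 32851 RefSeq promoters, 32.7% held the GC box, 10.0% GATA, 6.7% AP-1, 12.4% the TATA box, 10.1% NKX2-5 and 3.3% the T-box pattern. The Gja4 window held 1 GC box. These are matches of letters in a short window, and none of these assays measured binding there.

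The first question was which connexin transcripts differed between CUG960 +dox and control atria. Gja5 fell and Gjd3 rose. Gja1 was lower and Gjc1 higher in every CUG960 +dox mouse than in any control, both by less than 1.5-fold, and Gja4 overlapped between the groups. To be called, a gene had to change at least 1.5-fold with an adjusted P value below 0.05, and by that rule 5.49% of the 17650 genes tested were called in atria (3.37% higher and 2.12% lower). Of the 5 connexins, 2 were called, 1 in each direction, and the groups did not overlap for 4, against 35.6% of all genes tested.

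**Figure D1:**
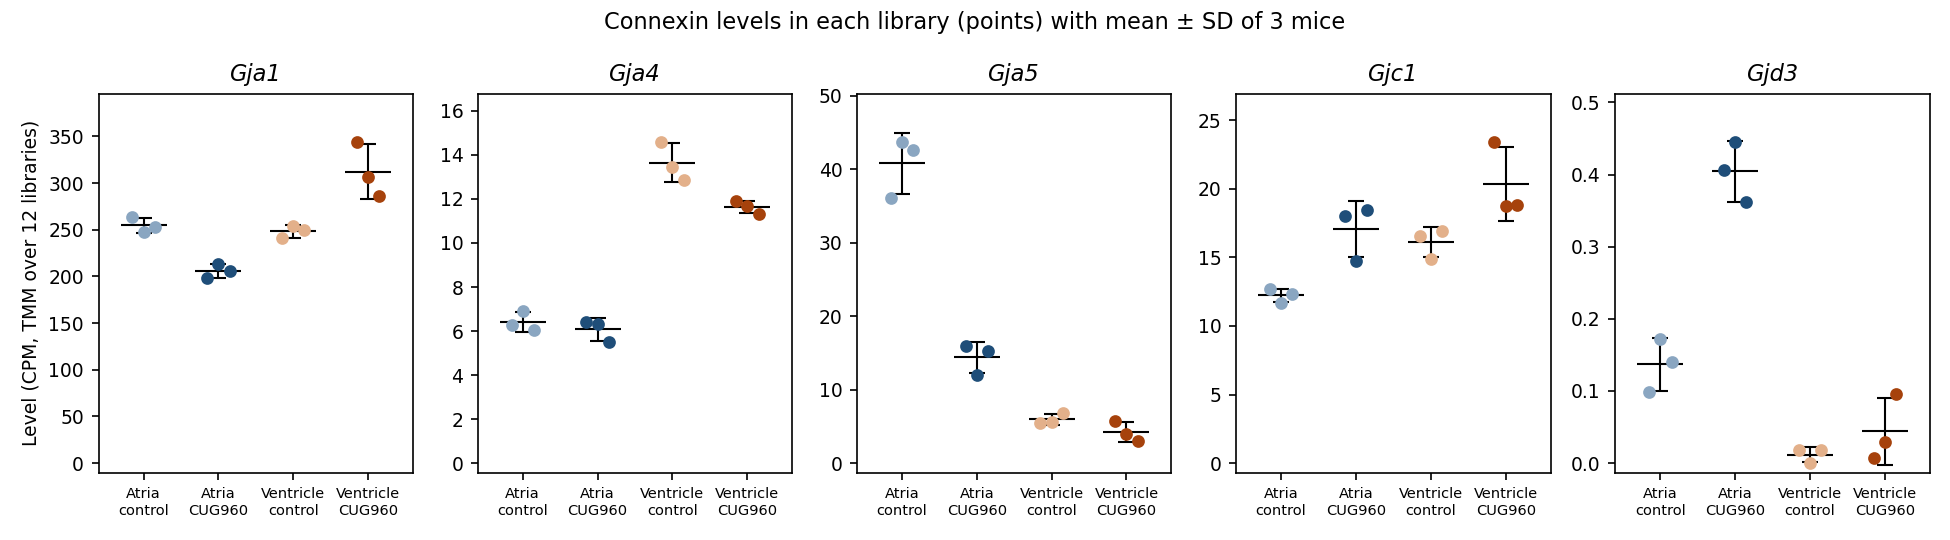
Levels of the 5 connexins (CPM, TMM-scaled, with linear axes that differ between panels) in each of 12 libraries, as points, with the mean and SD of 3 mice as black lines. Gja5 points of CUG960 +dox atria (12.02 to 15.9 CPM) lie far below those of control atria (36.1 to 43.7 CPM), and Gja1 of CUG960 +dox mice lies below the controls in atria and above them in ventricles.

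Gja5 encodes connexin 40, with Gja1 the principal channel of atrial myocytes. Its level was 36.1, 43.7 and 42.6 CPM in the atria of control mice V327, V333 and V334, and 15.9, 12.02 and 15.3 CPM in CUG960 +dox mice V119, V120 and V123. The highest CUG960 +dox value was thus less than the lowest control value, and counts were large in each library (1862 to 7623). Gja5 was 2.85-fold lower (log2 fold change of -1.51 ± 0.12 SE, 95% confidence interval, -1.79 to -1.23, adjusted P value = 0.000309, edgeR's quasi-likelihood test). With any one of the 6 mice left out, the log2 fold change ranged from -1.60 to -1.39 and the adjusted P value from 0.00101 to 0.00241. In these bulk tissues, fewer cells of a type and less RNA per cell cannot be told apart. The Gja5 gene model (chr3:96904693-97077416, plus strand, GRCm38) overlaps exon sequence of Gpr89 (chr3:96868281-96905346) on the opposite strand. Gpr89 was at 21.3 to 24.5 CPM in control atria and 21.4 to 23.8 CPM in CUG960 +dox atria (log2 fold change of -0.05, adjusted P value = 0.728). The libraries were stranded, but whether the counting used the strand is not given in the sources used here.

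Gjd3 encodes connexin 30.2, a channel of very low conductance best known from the atrioventricular node. Its counts were 15, 30 and 22 in the 3 control atria and 58, 69 and 49 in the 3 CUG960 +dox atria, so that each CUG960 +dox library exceeded each control. The level rose from 0.137 ± 0.037 to 0.405 ± 0.042 CPM (mean ± SD, n = 3 mice per group), which was 2.92-fold (log2 fold change of 1.55 ± 0.29 SE, adjusted P value = 0.0120). Gjd3 was the scarcest member in both groups, and its model in the annotation used here (chr11:98982180-98983016, minus strand) is 837 bases long, of which 834 are coding. When all 12 libraries were fitted together, the difference was of the same size but the adjusted P value was 0.0727, and with 1 mouse left out it ranged up to 0.0495.

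Gja1, the connexin 43 gene (chr10:56377330-56402513, plus strand), was the most abundant member in every library. Control atria had 263.8, 247.9 and 253.5 CPM, and CUG960 +dox atria had 198.8, 213.5 and 206.1 CPM. Every CUG960 +dox value lay below every control value, but the difference was 1.24-fold (log2 fold change of -0.31 ± 0.06 SE, adjusted P value = 0.0102), under the fold limit, and Gja1 was therefore not called.

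Gjc1, the connexin 45 gene (chr11:102799579-102819700, minus strand), is the connexin of the sinus and atrioventricular nodes and of the embryonic heart tube. Control atria had 12.7, 11.7 and 12.3 CPM and CUG960 +dox atria had 18.0, 14.7 and 18.5 CPM, without overlap. The difference of 1.39-fold (log2 fold change of 0.47 ± 0.10 SE, adjusted P value = 0.0162) was also below the fold limit. Without mouse V119 its adjusted P value was 0.0656.

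Gja4 (chr4:127311421-127314039, minus strand), the endothelial connexin 37 gene, had 6.27, 6.91 and 6.05 CPM in control atria and 6.43, 6.33 and 5.49 CPM in CUG960 +dox atria. These ranges overlapped, and the 95% confidence interval of the log2 difference, -0.32 to 0.16, included 0 (adjusted P value = 0.645).

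**Figure D2:**
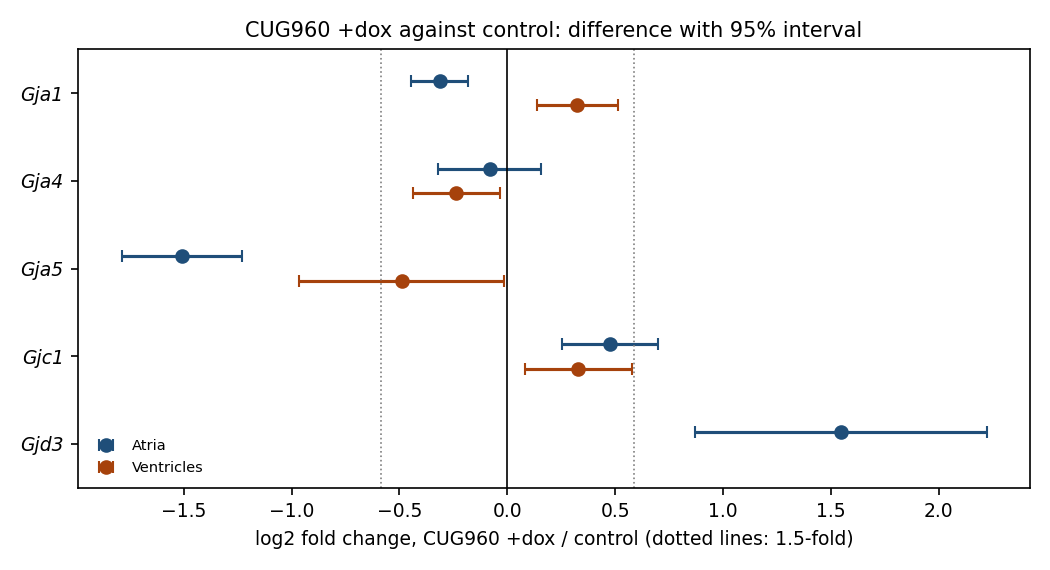
Log2 fold changes of CUG960 +dox against control (x axis) for each connexin (y axis), in atria and ventricles, with 95% confidence intervals from the edgeR fits of 6 libraries each, and dotted lines mark 1.5-fold. Gja1 is the only member with an interval below 0 in atria and above 0 in ventricles, and Gjd3 has no ventricular value because too few reads were counted there.

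The same question was asked in the ventricles. None of the 4 connexins tested was called there, at 4.75% of the 16909 genes tested (3% higher and 1.76% lower). Of the called genes, 63.1% were higher in CUG960 +dox ventricles, a share that became 80.6% when libraries were scaled by total counts in place of TMM, which moved the median of all genes by 0.108 on the log2 scale. The groups did not overlap for 3 of the 4 (Gja1, Gja4 and Gjc1), against 31.2% of all genes.

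Ventricular Gja1 was at 240.7, 254.2 and 250.3 CPM in control mice and at 344.4, 306.1 and 286.6 CPM in CUG960 +dox mice. Here every CUG960 +dox value was above every control value, and V119 stood highest. The difference was 1.25-fold (log2 fold change of 0.33 ± 0.08 SE, 95% confidence interval, 0.14 to 0.51, adjusted P value = 0.0409), under the fold limit. The adjusted P value was between 0.0518 and 0.148 when any one mouse was left out, with log2 fold changes from 0.25 to 0.38.

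Gja5 was at 5.49, 5.60 and 6.87 CPM in control ventricles and at 5.76, 4.02 and 3.04 CPM in CUG960 +dox ventricles. V119 lay within the control range and the other 2 CUG960 +dox mice lay below it. The log2 fold change was -0.49 ± 0.21 SE, and the adjusted P value was 0.183. Without V119 the values were -0.76 and 0.0390, and Gja5 would have been called, whereas without V123 they were -0.30 and 0.390. The ventricle of V123 combined the lowest Gja5 level with the highest atrial Myl7 level of the 6 ventricles.

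Gjc1 was at 16.5, 14.9 and 17.0 CPM in control ventricles and at 23.4, 18.7 and 18.8 CPM in CUG960 +dox ventricles, a log2 difference of 0.33 ± 0.11 SE that did not pass the test (adjusted P value = 0.0944). Gja4 was at 14.6, 13.5 and 12.9 CPM and at 11.9, 11.7 and 11.3 CPM, respectively, a log2 difference of -0.24 ± 0.09 SE (adjusted P value = 0.131). Gjc1 thus lay higher and Gja4 lower in every CUG960 +dox ventricle, by amounts that the test did not separate from replicate spread. Gjd3 counts were 2, 0 and 2 in control ventricles and 1, 4 and 12 in CUG960 +dox ventricles, and the gene was removed by the filter on low counts. The 0 in V333 allows up to 3 counts at this depth. The summed counts, 4 and 17, gave a ratio of 3.42 with a counting interval of 1.12 to 14. V123, the ventricle with the most Myl7, contributed 12 of these counts. Its ventricular Gjd3 level was 26.45% of its atrial level, against 2.20% for Myl7. Whether atrial tissue in that library bears on Gjd3 was not tested.

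Whether the CUG960 +dox difference itself differed between chambers was tested as the interaction of chamber and genotype over all 12 libraries, in which 1.38% of 18327 genes passed at an adjusted P value under 0.05. For this test 49.8% of the passing genes had a positive term, and 34.5% when libraries were scaled by total counts. Gja1 passed. Its genotype difference was 0.64 lower in atria than in ventricles on the log2 scale (-0.64 ± 0.10 SE, 95% confidence interval, -0.85 to -0.42, adjusted P value = 0.00802). With the mouse as a block the term was -0.63 (adjusted P value = 0.0256). Without control mouse V327 it was -0.59 and missed the threshold (adjusted P value = 0.0610), and for the other 5 mice left out in turn the adjusted P value stayed at or below 0.0413. The interaction uses the same libraries as the comparisons within each chamber.

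For Gja5 the term was larger but less certain (-1.02 ± 0.27 SE, 95% confidence interval, -1.60 to -0.44, adjusted P value = 0.101). It passed the threshold with the mouse as a block (-0.99, adjusted P value = 0.0479), with DESeq2 (-1.01, adjusted P value = 0.00607) and with no filter on low counts (-1.02, adjusted P value = 0.0135), so that a Gja5 difference between the chambers was called or missed depending on the fit. Gja4 (0.16 ± 0.13 SE), Gjc1 (0.15 ± 0.15 SE) and Gjd3 (-0.19 ± 0.84 SE) did not pass.

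The atria and ventricles of the same hearts were then compared, within each genotype. Gja5 and Gjd3 were higher in atria and Gja4 was higher in ventricles, in both genotypes. With TMM scaling Gja1 did not pass the test between the chambers of control hearts and was lower in atria of CUG960 +dox hearts. Chambers differ in many genes: 34.9% of 17451 genes were called in control hearts (18.3% higher and 16.6% lower in atria) and 33.6% of 17559 in CUG960 +dox hearts (17.2% higher and 16.4% lower). The groups did not overlap for 64.7% and 62.5% of genes, respectively, and the connexins are to be read against that background.

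In control hearts 3 of 5 connexins were called (2 higher and 1 lower in atria), and in CUG960 +dox hearts 4 of 5 (2 higher and 2 lower). Gja5 was 6.77-fold higher in atria than ventricles of control hearts (log2 fold change of 2.76 ± 0.12 SE, adjusted P value = 7.07e-07) and 3.32-fold higher in CUG960 +dox hearts (1.73 ± 0.22 SE, adjusted P value = 0.00014). Per mouse, the ventricular Gja5 level was 15.2%, 12.8% and 16.1% of the atrial level in controls V327, V333 and V334, and 36.3%, 33.5% and 19.9% in V119, V120 and V123. Those shares were well above the share of Myl7 in the same ventricles, given above. Whether atrial tissue in the ventricular libraries bears on them was not tested.

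Gjd3 had 67 counts in the 3 control atria against 4 in the 3 control ventricles, a ratio of 11.4 after scaling, with a counting interval of 4.25 to 43.1 (adjusted P value = 0.00256). In CUG960 +dox hearts the counts were 176 and 17, with a ratio of 9.77 and an interval of 5.93 to 17.2 (adjusted P value = 0.00156). These intervals cover counting error only, and single mice moved the size of the difference. The fitted log2 fold change of Gjd3 in CUG960 +dox hearts was 3.21, and without V123, which held 12 of the 17 ventricular counts, it was 4.52 (range with each mouse left out, 2.68 to 4.52). In control hearts it was 3.397, and 2.67 without V333 (range, 2.67 to 3.96). The gene was called higher in atria in each of these fits, with adjusted P values from 0.000563 to 0.0285. Gja4 was 2.14-fold lower in atria of control hearts (log2 fold change of -1.10 ± 0.09 SE, adjusted P value = 2.22e-05) and 1.94-fold lower in CUG960 +dox hearts (-0.95 ± 0.10 SE, adjusted P value = 3.87e-05).

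Gja1 differed by 0.03 ± 0.06 SE on the log2 scale between atria and ventricles of control hearts (95% confidence interval, -0.11 to 0.17, adjusted P value = 0.722), and the chamber ranges overlapped. In CUG960 +dox hearts it was 1.53-fold lower in atria (log2 fold change of -0.62 ± 0.08 SE, adjusted P value = 0.000219), just past the fold limit, and without V119 the log2 fold change of -0.52 fell short of it. Gjc1 was lower in atria by 1.33-fold in control hearts (adjusted P value = 0.00271) and 1.21-fold in CUG960 +dox hearts (adjusted P value = 0.0881), and was called in neither.

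These chamber values depended on the scaling. Mitochondrially encoded genes took 10.9% to 12.2% of counts in atria and 15.3% to 20.5% in ventricles, and TMM factors were 1.12 to 1.18 and 0.819 to 0.906. Scaling by total counts moved the median of all genes by 0.455 (control) and 0.393 (CUG960 +dox) toward atria, or by 0.314 and 0.3 with mitochondrially encoded genes left out of the totals. Total counts also moved the share of called genes that were higher in atria from 52.4% to 82.7% and from 51.2% to 79.7%. Under total counts the log2 difference of Gja1 in control hearts, 0.03 with TMM, was 0.48 (adjusted P value = 0.000138), still under the fold limit. Gjc1 turned to 0.04 and 0.12 in control and CUG960 +dox hearts, Gja1 in CUG960 +dox hearts shrank to -0.23, and Gja4 in CUG960 +dox hearts to -0.56, which was under the fold limit. Gja5 and Gjd3 remained higher in atria in both genotypes.

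**Figure D3:**
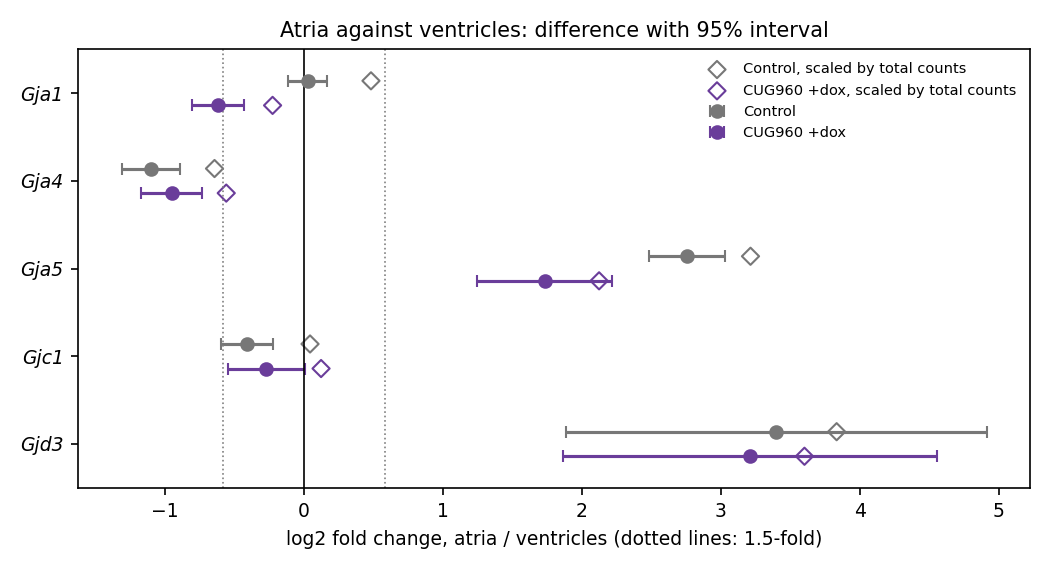
Log2 fold changes of atria against ventricles (x axis) for each connexin (y axis) in control and CUG960 +dox hearts, as filled points with 95% confidence intervals, while open diamonds give the same value with libraries scaled by total counts, and dotted lines mark 1.5-fold. Gja5 and Gjd3 lie to the right of 1.5-fold under both scalings, whereas Gjc1 crosses 0.

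To compare members with each other, levels were divided by gene length (CPM per kb of exon, with all annotated exons joined). In control atria the order was Gja1 (24.9 ± 0.8 CPM per kb), Gja5 (7.10 ± 0.72), Gja4 (3.81 ± 0.27), Gjc1 (2.45 ± 0.10) and Gjd3 (0.164 ± 0.044). In CUG960 +dox atria Gja1 remained first (20.1 ± 0.7), Gja4 (3.61 ± 0.31) and Gjc1 (3.41 ± 0.41) did not differ beyond their SDs, and Gja5 (2.51 ± 0.36) came after them. Gja5 thus stood at the second place in control atria and at the fourth in CUG960 +dox atria.

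In ventricles of both genotypes the order was Gja1, Gja4, Gjc1, Gja5 and Gjd3. Control ventricles had per-length levels of 24.2 ± 0.7, 8.10 ± 0.52, 3.22 ± 0.22, 1.04 ± 0.13 and 0.0143 ± 0.0123 CPM per kb for these members. CUG960 +dox ventricles had 30.5 ± 2.9, 6.90 ± 0.16, 4.06 ± 0.54, 0.744 ± 0.240 and 0.0524 ± 0.0553 CPM per kb. The endothelial gene Gja4 was therefore the second connexin transcript of these ventricles, ahead of the myocyte genes other than Gja1. The joined exons of Gja1 span 10.257 kb and its longest transcript 3.889 kb. With the longest transcript as the length, the Gja1 level in control atria was 65.6 CPM per kb in place of 24.9, and Gjc1 (5 ± 0.598), Gja5 (3.93 ± 0.57) and Gja4 (3.61 ± 0.31) changed places in CUG960 +dox atria.

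As a share of the summed level of the 5 members, Gja5 made up 18.5% ± 1.9 (SD, n = 3) of control atria and 8.32% ± 1.21 of CUG960 +dox atria, with ranges of 16.4% to 19.8% and 6.94% to 9.19%. With the longest transcript as the length these shares were 13.2% and 5.95%. Gjc1 took 6.37% ± 0.26 and 11.3% ± 1.4, and Gjd3 0.426% ± 0.115 and 1.61% ± 0.17. By the longest transcript, Gjc1 took 4.25% and 7.58% and Gjd3 0.19% and 0.73%. Gja1 kept near the same share of atria (64.8% ± 2.1 and 66.8% ± 2.3), while in ventricles it took 66.2% ± 1.6 of control and 72.1% ± 0.5 of CUG960 +dox libraries. The shares of one library sum to 100%, so they are not independent of each other.

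The summed level of the 5 members was 38.3 to 38.4 CPM per kb in control atria and 30.1 CPM per kb in each CUG960 +dox atrium. In ventricles it was 36.4 to 36.7 in controls and 39.1 to 46.3 in CUG960 +dox mice. This sum of 5 genes was thus smaller in CUG960 +dox atria and larger in CUG960 +dox ventricles, without overlap in either chamber. With the longest transcript as the length, a choice added after seeing the data, it was 83.4 to 85.2 CPM per kb in control and 65.02 to 66.8 in CUG960 +dox atria, and 76.9 to 79.2 and 86.9 to 104.1 in ventricles. With Gja3 also added to the sum over joined exons, likewise a later choice, it was 43.9 to 44.9 and 37.6 to 37.9 in atria and 39.5 to 39.6 and 42.4 to 50.5 in ventricles, again without overlap. The ratio of Gja1 to Gja5 per length was 4.10, 3.18 and 3.34 in atria of V327, V333 and V334 and 7.02, 9.95 and 7.55 in atria of V119, V120 and V123. In ventricles it was 24.6, 25.5 and 20.4 and 33.5, 42.7 and 52.8, respectively, so that every CUG960 +dox library had a higher ratio than any control library of the same chamber. The size of this ratio depends on the lengths, and with the longest transcripts it was 5.35 to 6.90 in control and 11.8 to 16.8 in CUG960 +dox atria, and 34.4 to 42.8 and 56.4 to 88.95 in ventricles.

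**Figure D4:**
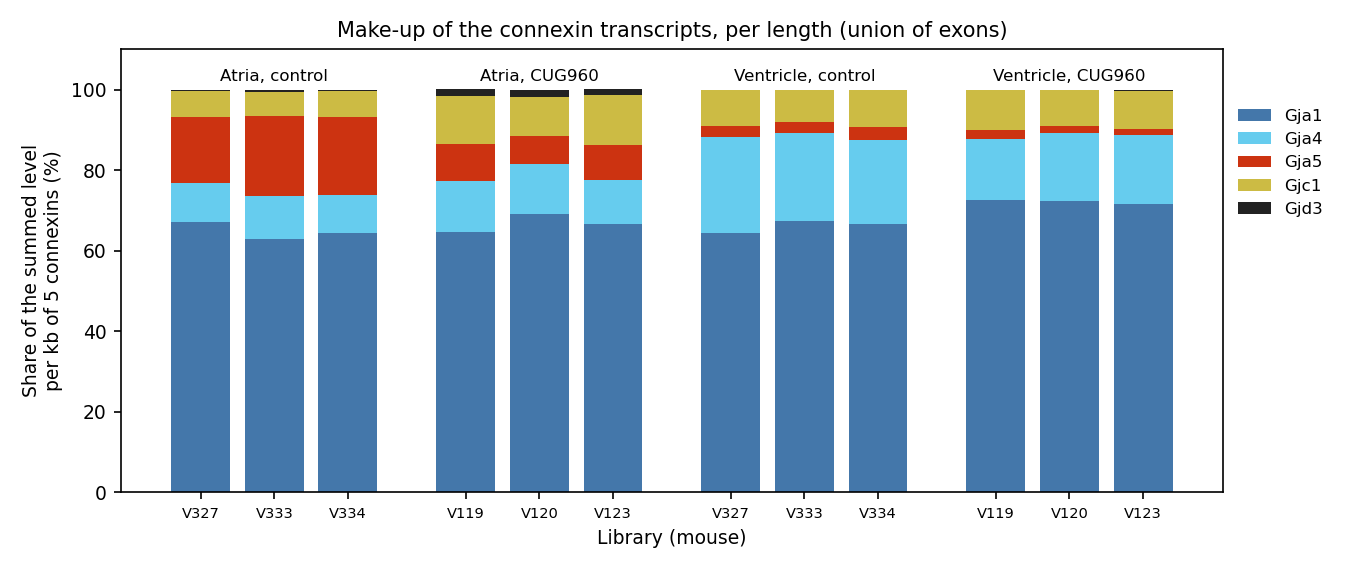
Share of each connexin in the summed level per kb of the 5 genes (y axis, %) for each of the 12 libraries (x axis, by mouse). The Gja5 band is 16.4% to 19.8% of control atria and 6.94% to 9.19% of CUG960 +dox atria, and Gja1 forms the largest band in every library.

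The other connexin genes and the pannexins, which form related channels in single membranes, were examined as a list of 18. For the 9 with enough counts in atria, the median log2 fold change between genotypes was -0.15, against -0.01 for all genes. Of the 6 tested in ventricles none was called, against 4.75% of all genes (median of 0.14, against -0.01). In control hearts 7 of 9 were higher in atria, against 18.3% of all genes (median of 1.03, against 0.03), and in CUG960 +dox hearts 4 of 7, against 17.2% (median of 1.01, against 0.01).

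Gja3 (connexin 46, best known from the lens) had the highest level of these 18 genes. Its level was 17.8 ± 1.4 CPM in control atria, 22.5 ± 0.5 in CUG960 +dox atria, 8.62 ± 0.38 in control ventricles and 11.0 ± 1.1 in CUG960 +dox ventricles. Atrial values did not overlap between genotypes (16.4 to 19.1 and 22.1 to 23.0 CPM), but the log2 difference of 0.33 was under the fold limit (adjusted P value = 0.0219). Per length, Gja3 in CUG960 +dox atria (7.58 ± 0.17 CPM per kb) stood above Gja5 (2.51 ± 0.36), while in control atria it was at 5.996 ± 0.458 beside 7.10 ± 0.72 for Gja5.

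Panx2, a pannexin, was at 10.5 ± 0.5 CPM in control atria and 0.545 ± 0.088 CPM in control ventricles, a log2 difference of 4.26 (adjusted P value = 2.01e-07). CUG960 +dox hearts had 14.1 ± 1.4 and 0.879 ± 0.130 CPM, and the genotype difference was called in neither chamber (0.42, adjusted P value = 0.0208, and 0.68, adjusted P value = 0.105). Gjb5 is a connexin gene best known from epithelia. Gjb5 was at 1.94 ± 0.18 CPM in control atria, 1.24 ± 0.30 in CUG960 +dox atria (log2 difference of -0.65, adjusted P value = 0.0608) and at 7 counts or fewer in each ventricle.

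Panx1 (2.30, 1.90, 1.32 and 1.62 CPM in control atria, CUG960 +dox atria, control ventricles and CUG960 +dox ventricles), Gjc3 (0.193, 0.180, 0.347 and 0.151 CPM) and Gja6 (0.196, 0.178, 0.254 and 0.138 CPM) were called between genotypes in neither chamber.

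**Figure D5:**
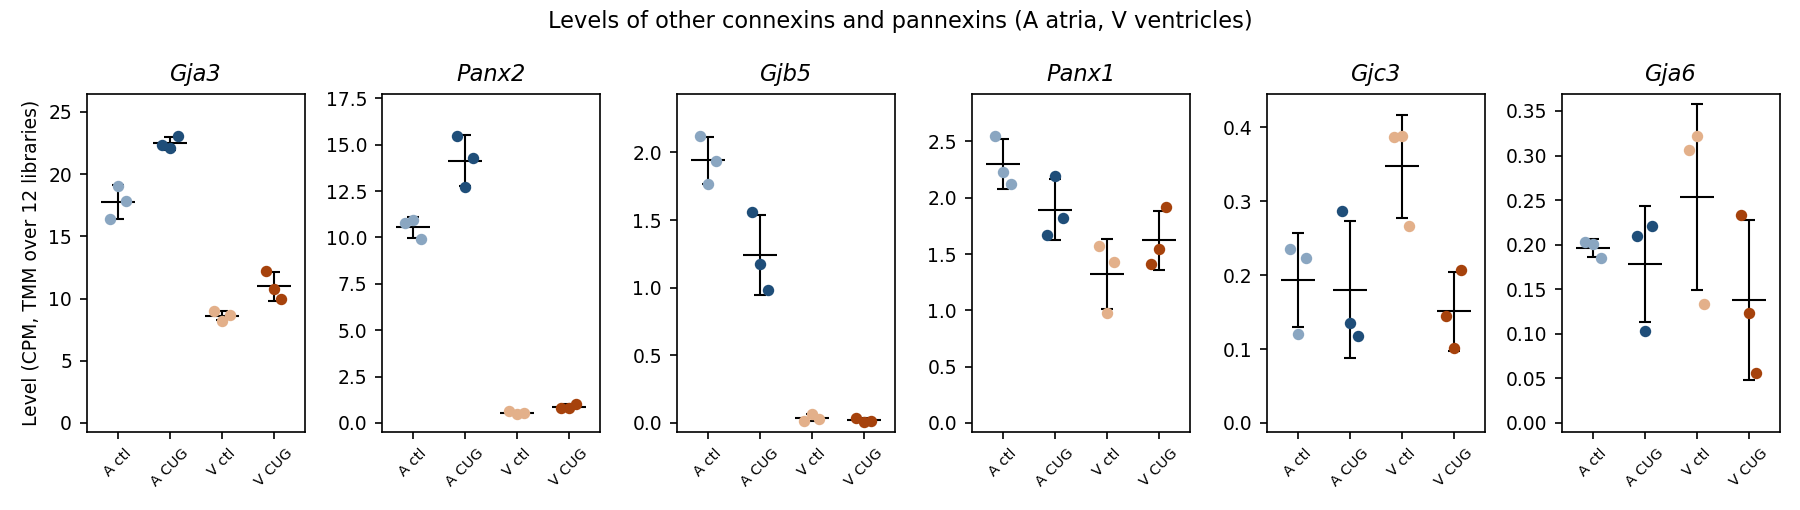
Levels (CPM, TMM-scaled, with linear axes that differ between panels) of 6 other connexin and pannexin genes whose mean level reached 0.1 CPM, in each library (points) with mean and SD of 3 mice, where A is atria, V ventricles, ctl control and CUG CUG960 +dox. Gja3, Panx2 and Gjb5 are higher in atria in both genotypes.

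Gap junctions sit in intercalated discs, and 22 genes of disc junctions and connexin delivery were examined, among them cadherin, catenin, desmosome, tight junction, microtubule and kinase genes. None of the 22 was called in atria (median log2 fold change of 0.12) or in ventricles (0.13). Of all genes tested, 5.49% were called in atria and 4.75% in ventricles, with a median of -0.01 in each chamber. The most abundant over all 12 libraries, the desmosomal gene Dsp, was at 538.8 CPM in control and 455.1 CPM in CUG960 +dox atria (log2 fold change of -0.25, adjusted P value = 0.0661) and at 887.3 and 922.0 CPM in ventricles (0.05, adjusted P value = 0.793). Of 19 transcription factors of cardiac conduction tissue tested, 1 fell in atria (median of -0.27), where 2.12% of all genes were called lower. None of them was called in ventricles (median of -0.07). The one that fell was Hey2, a repressor downstream of Notch (2.13 and 1.34 CPM in control and CUG960 +dox atria, log2 fold change of -0.67, adjusted P value = 0.0494).

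Markers of the cells in which these connexins are best known were counted beside them. The counts of these lists stand against 3.37% of all genes called higher and 2.12% lower in atria and 3% and 1.76% in ventricles, with a median of -0.01 over all genes in each chamber. Of 13 His-Purkinje markers tested in atria 3 rose and none fell (median of -0.27). The pacemaker channel gene Hcn4 rose from 1.49 to 8.75 CPM (log2 fold change of 2.55, adjusted P value = 0.00361). The potassium channel subunit gene Kcne1 rose at a low level, from 0.0939 to 0.260 CPM (1.46, adjusted P value = 0.0415). The guidance gene Sema3a was the third (0.77, adjusted P value = 0.000696). In ventricles 3 of 12 rose and 1 fell (median of 0.08), with Kcne1 (1.57, adjusted P value = 0.00161) and Nppa (1.301, adjusted P value = 0.0314) higher and the sodium channel gene Scn10a lower (-2.18, adjusted P value = 0.000505). Nppa, the atrial natriuretic peptide gene, made up nearly all of the summed level of this list in atria (15890 of 16030 CPM in control and 11920 of 12070 CPM in CUG960 +dox mice) but 62.4 of 175.9 and 154.2 of 293.8 CPM in ventricles, and 7 of its 14 genes also stand in another list used here.

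Sinoatrial node markers, another site of Gjc1 and Gjd3, rose for 4 of 11 genes in atria and fell for none (median of -0.09), with Hcn4, the calcium sensor gene Vsnl1 (4.93 to 13.7 CPM, log2 fold change of 1.47, adjusted P value = 0.00374) and the calcium channel gene Cacna1d (13.8 to 29.7 CPM, 1.10, adjusted P value = 0.005) the 3 largest. In ventricles 1 of 9 rose (Rgs6, a regulator of G protein signalling, 0.96, adjusted P value = 0.000167, median of 0.30). The list summed to 245.3 CPM in control and 336.3 CPM in CUG960 +dox atria and to 175.6 and 200.3 CPM in ventricles. Smoc2, its most abundant gene over all 12 libraries, was at 45.7 and 42.0 CPM in atria and 114.8 and 115.4 CPM in ventricles, and in atria Cacna2d2 (100 and 139.3 CPM) was higher. Of the transcription factors that define the node, 3 were singled out after their values were seen, and none was called, with Isl1 too low to be tested. Shox2 was at 1.61 and 1.44 CPM in control and CUG960 +dox atria (log2 fold change of -0.16, adjusted P value = 0.903), Tbx3 at 4.07 and 2.64 CPM (-0.63, adjusted P value = 0.117), and Isl1 at 0.0279 CPM or less in every group. Whether the amount of nodal tissue in an atrial library bears on Gjc1 or Gjd3 was not tested.

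Working myocytes are the main source of Gja1 and, in atria, of Gja5. None of 9 atrial myocyte markers was called in atria (median of 0.04), and their summed level was 29450 CPM in control and 24530 CPM in CUG960 +dox atria, of which Nppa gave 15890 and 11920 CPM. Of the ventricular myocyte markers 1 of 5 fell in atria (Hey2, median of -0.55). In ventricles 2 of 9 atrial markers rose and 1 fell (median of 0.47). The myosin binding protein gene Mybphl (log2 fold change of 2.17, adjusted P value = 0.0278) and Nppa were higher. The growth factor gene Bmp10 was lower (-4.06, adjusted P value = 0.00161). Its ventricular levels, 2.85 CPM in control and 0.17 CPM in CUG960 +dox mice, were small beside 1554 and 1591 CPM in atria. The summed levels of the 9 in ventricles were 99.5, 93.6 and 181.8 CPM in controls V327, V333 and V334. They were 108.6, 265.5 and 356.5 CPM in V119, V120 and V123. None of 6 ventricular markers was called in ventricles (median of 0.11, sums of 16650 and 18020 CPM). These sums were 1113 and 1299 CPM in atria.

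Gja4 and part of Gja5 belong to vessels, and the summed level of endothelial markers was lower in CUG960 +dox hearts in both chambers, without overlap. Of 13 endothelial markers 2 fell in atria (Pecam1, the platelet endothelial adhesion molecule, log2 fold change of -0.71, adjusted P value = 0.00431, Tek, the angiopoietin receptor, -0.62, adjusted P value = 0.00833) and 2 in ventricles (the tight junction gene Cldn5, -0.62, adjusted P value = 0.0159, the TGF-β coreceptor gene Eng, -0.60, adjusted P value = 0.00161). None rose, and the medians were -0.36 and -0.42. Their summed level was 1406 ± 177 and 1101 ± 75 CPM in control and CUG960 +dox atria and 1232 ± 77 and 924.8 ± 23.8 CPM in ventricles. Eng was at 361.9 and 284.2 CPM in atria and at 181.1 and 119.6 CPM in ventricles, where Kdr, a VEGF receptor gene (211.2 and 154.7 CPM), was higher. Of 12 arterial endothelial markers Notch4 fell in atria (-0.68, adjusted P value = 0.00557, median of -0.16) and none was called in ventricles (median of -0.31), with sums of 219.5 and 184.9 CPM in atria and 243.6 and 207.3 CPM in ventricles. Unc5b, the most abundant of these over all 12 libraries, was at 41.5 and 38.2 CPM in atria and 32.6 and 30.7 CPM in ventricles, and in control ventricles Acvrl1 (34.1 CPM) was higher. No gene of either list was at 0 in any library. Gja4 was, for comparison, at a log2 difference of -0.08 in atria and -0.24 in ventricles, and the part of endothelial RNA in the Gja4 and Gja5 differences was not tested.

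Markers of other cell types were called as well. Some of their summed levels were lower in CUG960 +dox mice, without overlap. Smooth muscle and pericyte markers summed to 1139 to 1281 CPM in control and 939.6 to 1012 CPM in CUG960 +dox ventricles. Fibroblast markers summed to 2512 to 2890 and 2075 to 2436 CPM in atria. Schwann cell markers had 41.5 to 51.7 and 31.1 to 34.9 CPM in atria. In ventricles they had 16.6 to 19.2 and 8.89 to 14.4 CPM. The remaining sums of these cell types overlapped. In atria the smooth muscle gene Tagln rose (1.21, adjusted P value = 0.0364, 1 of 10, median of -0.34), and the matrix gene Postn (-0.73, adjusted P value = 0.00262, 1 of 10 fibroblast markers, median of -0.38), the lymphatic gene Lyve1 (-0.74, adjusted P value = 0.0162, 1 of 8 mesothelial and lymphatic markers, median of -0.05) and the myelin gene Mbp (-0.66, adjusted P value = 0.00202, 1 of 7 Schwann cell markers, median of -0.14) fell. In ventricles 2 of 10 smooth muscle and pericyte markers (Myh11, -0.65, adjusted P value = 0.0393, Tagln, -0.63, adjusted P value = 0.0426, median of -0.33) fell, and no fibroblast (median of 0.00) or mesothelial and lymphatic (median of 0.17) marker was called. The 6 Schwann cell markers tested there had a median of -0.56. None of 7 leukocyte markers was called in either chamber (medians of -0.19 and -0.07), and their most abundant gene, Lyz2, was at 228.2 and 166.5 CPM in atria (-0.46, adjusted P value = 0.434) and 64.5 and 63.6 CPM in ventricles. Mesothelial and lymphatic markers, which include the surface cells of the heart, summed to 363.9 and 331.3 CPM in control and CUG960 +dox atria and to 108.8 and 116.6 CPM in ventricles. Upk3b was at 139.7 and 137.7 CPM in atria and at 1.047 and 1.148 CPM in ventricles, where Prox1 (69.6 and 80.4 CPM) was higher. The part of those cells in the atrial Gjb5 counts was not tested.

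For each connexin, the genes with the most similar profile across the 12 libraries were found among 12265 genes whose mean level was 1 CPM or more, as the root mean square difference of centred log2 levels. The closest to Gja5 were Cntfr, the ciliary neurotrophic factor receptor gene (0.36), Ifitm10 (0.37) and the imprinted noncoding RNA H19 (0.40), against an SD of 1.35 for Gja5 itself. Cntfr was at 38.3 and 15.8 CPM in control and CUG960 +dox atria and at 4.22 and 3.18 CPM in ventricles, close to the corresponding Gja5 levels. H19 was at 135 and 64.2 CPM in atria and at 17.9 and 12.5 CPM in ventricles.

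Closest to Gja1 were Ltbp1, which encodes a binding protein of latent TGF-β (0.09), Tbxa2r (0.11) and the actin-associated Svil (0.11), against an SD of 0.23. Ltbp1 was lower in CUG960 +dox than in control atria (39.6 and 50 CPM) and higher in CUG960 +dox than in control ventricles (58.5 and 45.6 CPM), as Gja1 was. Gjc1 was close to the cholinesterase gene Bche (0.08) and the homeobox gene Cux2 (0.11), with an SD of 0.30. Gja4 was closest to Yars2, Msx1 and Bloc1s6 (0.09, 0.10 and 0.10, SD of 0.54), and Gjd3, with its few counts, had only loose neighbours in Gpr162, Grip1 and Clec2l (0.57, 0.62 and 0.64, SD of 1.74). With 4 groups of 3 libraries, such likeness follows mainly from the group means.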

How the data were processed

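Atria and ventricles of 6 mice gave 12 poly(A) libraries (TruSeq stranded, paired-end). Per the labels and the study's methods, the authors aligned reads to mm10 (GRCm38), quantified genes with RSEM 1.3.1 and deposited 1 table of expected counts, which hold whole numbers and are not scaled. The counts were used as deposited. Genes kept by filterByExpr were tested with edgeR 4.0.16 (R 4.3.3; TMM, quasi-likelihood F test, Benjamini-Hochberg adjustment over all genes tested) in the 6 libraries of each comparison, and the interaction in all 12. A call required an adjusted P value under 0.05 and, except for the interaction, a fold change of at least 1.5. Levels are CPM with TMM over 12 libraries, so that a ratio of mean levels can differ slightly from a fitted fold change. Errors are SDs of 3 mice unless named SE. Lengths and coordinates came from GENCODE M21 on GRCm38, which is newer than the authors' annotation, and upstream sequences from RefSeq.

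The 5 connexins and the 14 lists (155 genes) were chosen with earlier results of these data known. Genes named were the 5 members, the called genes of each list (at most 3 per chamber) or, where none was called, its most abundant gene, other connexins and pannexins whose mean level reached 0.1 CPM, and the 3 most similar genes of each member. Some genes that this rule names are not reported here. Atria and ventricles of the same number came from the same mouse: deviations from group means correlated at 0.0522 to 0.303 within mice (6 pairs) and -0.282 to 0.122 between mice of a genotype (12 pairs). Replicates differed beyond sampling noise (chi-square per degree of freedom, 38.3 to 113 over 12 pairs). The fits were first tested on simulated counts with known changes. Alternatives were DESeq2 1.42.0, other scalings, filters and fold limits, all libraries in a single fit, the mouse as a block, each mouse left out in turn and another gene length. Scaling of the tests by total counts was added after seeing the data.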

Additional observations from a re-analysis of the deposited data

Results flagged for a closer look

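Gja1 stood out because its CUG960 +dox difference was not the same in the 2 chambers, by a test of that difference. The interaction term was -0.637 on the log2 scale (adjusted P value = 0.00802, edgeR's quasi-likelihood test), from a lower level in atria (206.1 against 255 CPM) and a higher level in ventricles (312.4 against 248.4 CPM) of CUG960 +dox mice. All 3 CUG960 +dox mice showed each direction. Neither difference reached 1.5-fold within its chamber. No connexin level in a single group was tested for outliers, since groups held 3 mice.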

How the results depend on the processing

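In atria, the lower Gja5 level kept its direction and its call under every alternative run. Counts of called genes depended on the fold limit: at a log2 fold change of at least 1.5 they were 216 in atria, 199 in ventricles, 2233 between chambers of control hearts and 2200 of CUG960 +dox hearts, and with no limit 2573, 1680, 9726 and 9517. The interaction gave 660 genes with DESeq2 and 74 to 131 with each mouse left out, against 253. The Gjd3 rise in atria missed the threshold with all 12 libraries in a single fit (1.55, adjusted P value = 0.0727).

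With each mouse left out, the log2 difference of Gja5 in ventricles ranged from -0.76 to -0.30, of Gja1 between chambers of control hearts from -0.0193 (without V327) to 0.066 and of CUG960 +dox hearts from -0.66 to -0.52, and the interaction of Gja1 from -0.69 to -0.53 and of Gjd3 from -0.75 to 1.11. The Gjd3 interaction reversed without V333 (0.53) and V123 (1.11) and with the replicate block (0.0029), on few counts. The interaction of Gja5 passed the threshold with DESeq2 (-1.01), no filter on low counts (-1.02) and the replicate block (-0.99). The replicate block, with the mouse as pairing, changed no other call of a connexin.

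Between chambers of CUG960 +dox hearts, Gja1 fell short of the fold limit with upper quartile scaling (-0.58), total counts (-0.23) and total counts without mitochondrially encoded genes (-0.32), and Gja4 with total counts (-0.56). Gjc1 reversed with total counts in control (0.0438) and CUG960 +dox hearts (0.1231) and, without mitochondrially encoded genes, in CUG960 +dox hearts (0.0282). The cause of these changes was not tested. Of the log2 differences of connexins under the alternatives other than fold limits, 295 kept their direction and side of the threshold, 7 were weaker, 4 stronger and 7 reversed. A log2 limit of 1.5 would end the chamber calls of Gja4 (-1.10 and -0.95) and of Gja1 in CUG960 +dox hearts (-0.62). With no limit, Gja1 in both chambers and Gjc1 in atria would be called between genotypes, and Gjc1 between chambers of control hearts.

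Each group held 3 mice of a single sex and age. Gjd3 rests on few counts, so the size of its difference is less certain than that of Gja1 or Gja5.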
